A study of Homo sapiens with 6 samples.

Results

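The aryl hydrocarbon receptor pathway was examined through 9 genes in Hep3B cells, an established human hepatocellular carcinoma line. They are the receptor gene AHR, its partner genes ARNT and ARNT2, the repressor gene AHRR, and the target genes CYP1A1, CYP1A2, CYP1B1, TIPARP and NQO1. The genes were taken by symbol from 23228 genes, of which 14537 passed a filter on low counts. Among the 9 genes, 7 passed that filter, while ARNT2 and CYP1A2 did not. Because the genes were chosen on the fold changes of this same comparison, their values and calls are given only as a description, and no p value is given for them. CYP1A1 and CYP1B1 RNA was 4.15 and 10.4 times the control level in the libraries labelled PELP1-KD, whereas AHR RNA was 1.04 times that level.

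The study asked which genes change in HCC cells when PELP1, a coregulator of nuclear receptors, is depleted. RNA was sequenced in 3 libraries from Hep3B cells carrying a non-targeted shRNA (control) and in 3 libraries from Hep3B cells carrying PELP1 shRNA (PELP1-KD). Both groups were stable populations made with lentiviral particles and grown in RPMI medium, and the PELP1-KD cells were selected with puromycin and used as pooled clones. The titles of the PELP1-KD libraries point to the first of the study's PELP1 shRNAs, but the protocol in the labels names both. The labels also conflict on the RNA extraction, on the library kit and on single or paired reads. No label says that the 3 libraries of a group came from separate cultures, so the p values below measure only the spread between these libraries, which may be technical.

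Depth ran from 26758363 to 34456542 reads on genes. For PELP1 itself, control libraries averaged 4970 ± 115 normalized reads and PELP1-KD libraries 4695 ± 238 (SD, n = 3), which is 94.5% of control. The knockdown in these libraries is thus taken from the labels. The paper reports lower PELP1 protein in PELP1-KD Hep3B cells by Western blot and in their xenografts by IHC, but these libraries measure RNA only. Of 8 hepatocyte markers, all were expressed, 2 rose (25%) and 6 fell (75%) (edgeR, adjusted p below 0.05). AFP and FGB rose, and ALB, APOA1, APOB, TTR, SERPINA1 and TF fell. For these and the markers below, 26.8% of all tested genes were called in each direction. Of 4 immune markers, PTPRC and CD3E had at most 5 reads in a library, CD68 rose and CD14 fell. Of 3 endothelial markers, CDH5 had 0 reads in each library, VWF had at most 3 reads, and PECAM1 was not called. Of 4 stellate and fibroblast markers, COL1A1 rose, PDGFRB fell, COL3A1 was not called and ACTA2 had at most 10 reads. Of 3 biliary markers, KRT19 rose, SOX9 was not called and KRT7 had at most 12 reads. The part of these markers in the results was not tested. In bulk RNA, fewer cells that express a gene and less RNA per cell cannot be told apart.

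The aryl hydrocarbon receptor is a transcription factor of the bHLH-PAS family. It waits in the cytosol with HSP90 and other chaperones until a ligand such as a dioxin, a polycyclic hydrocarbon or a tryptophan metabolite binds it. It then enters the nucleus, pairs with ARNT and binds the xenobiotic response element, whose core is GCGTG, near genes such as CYP1A1. AHRR competes with the receptor, and TIPARP adds ADP-ribose to the receptor and limits its activity, so both act in negative feedback. In liver the pathway is known for the oxidation of foreign aromatic compounds by CYP1 enzymes.

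The sequences before CYP1A1, CYP1A2 and TIPARP are shown, because the core motif that the receptor binds can be read in them. CYP1A1 and CYP1A2 are neighbours that lie head to head, with 23.3 kb between them. From RefSeq (GRCh38.p14), the 250 bases before the start of CYP1A1 (chr15:74725529-74725778, minus strand), CYP1A2 (chr15:74748595-74748844, plus strand) and the first of the TIPARP starts (chr3:156674340-156674589, plus strand) are given 5′ to 3′, with the core GCGTG or its reverse complement CACGC in capitals.
CYP1A1 promoter: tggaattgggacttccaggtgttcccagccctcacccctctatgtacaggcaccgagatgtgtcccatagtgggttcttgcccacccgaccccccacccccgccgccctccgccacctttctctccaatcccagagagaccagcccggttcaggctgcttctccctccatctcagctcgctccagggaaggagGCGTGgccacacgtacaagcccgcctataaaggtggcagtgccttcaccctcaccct
CYP1A2 promoter: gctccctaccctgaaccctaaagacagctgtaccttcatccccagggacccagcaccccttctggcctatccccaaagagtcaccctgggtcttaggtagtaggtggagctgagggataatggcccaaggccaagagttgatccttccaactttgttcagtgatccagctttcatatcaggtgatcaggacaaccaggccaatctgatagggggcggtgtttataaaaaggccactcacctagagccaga
TIPARP promoter: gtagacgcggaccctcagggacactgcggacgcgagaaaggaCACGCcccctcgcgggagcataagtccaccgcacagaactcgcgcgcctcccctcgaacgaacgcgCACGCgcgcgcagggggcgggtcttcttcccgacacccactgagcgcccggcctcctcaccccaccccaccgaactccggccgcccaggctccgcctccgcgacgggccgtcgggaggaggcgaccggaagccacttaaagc
The CYP1A1 stretch held 1 core, which began at position −57 from the start, the CYP1A2 stretch held 0 and the TIPARP stretch held 2. The promoter table (250 bases before to 50 after a start) had 10 entries for 7 of the 9 genes, and the core was also found in the entries of AHR, AHRR and NQO1. The other TIPARP windows held 0 cores. Of 35116 such windows of all genes, 36.5% held the core on either strand. The antioxidant response element TGACNNNGC, searched on both strands, was found in the ARNT window, and 13.3% of all windows held it.

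A longer window, the 1500 bases before the 5′ end that the tables give each gene in hg19, was added after the values were seen. CYP1A1 held 10 cores in it, against a median of 2 over 13487 genes, and 0.6% of these genes held as many. Its window was 66.7% G and C. ARNT and TIPARP held 6 each, NQO1 held 3, CYP1A2 held 1, and AHR and AHRR held 0. The AHRR window (chr5:302791-304290) lay inside the span of PDCD6 (chr5:271736-315089). The RefSeq windows of AHRR held 1 and 2 cores, so the 0 does not describe those starts. In the longer windows the antioxidant response element was found in ARNT and NQO1, 1 in each. AHR, AHRR, CYP1A1, CYP1A2 and TIPARP held 0 of it there, and 42.4% of the 13487 genes held it. The densest 300 bases before CYP1A1 (hg19, chr15:75018851-75019150, minus strand), from position −1273 to −974, held 5 of its cores.
CYP1A1 upstream stretch: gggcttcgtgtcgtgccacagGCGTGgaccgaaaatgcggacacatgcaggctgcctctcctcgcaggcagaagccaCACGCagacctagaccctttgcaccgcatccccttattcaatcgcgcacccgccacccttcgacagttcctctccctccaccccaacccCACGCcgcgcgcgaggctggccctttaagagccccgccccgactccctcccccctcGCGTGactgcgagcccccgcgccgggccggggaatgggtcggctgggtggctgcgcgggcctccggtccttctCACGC
The cores in capitals are on both strands, GCGTG reading toward the gene and CACGC away from it. A match describes letters only, and binding of the receptor was not measured.

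AHR (hg19, chr7:17338276-17385775) was among the more abundant of these genes and was close to level between the groups. Control libraries had 7650, 7100 and 6868 reads, and PELP1-KD libraries had 6988, 6008 and 6954. TMM normalization put the groups at 6790 ± 231 and 7037 ± 107 reads (SD, n = 3 each) with overlap, for a log2 fold change of 0.05 (SE 0.04). ARNT (chr1:150782181-150849244), the partner that carries the receptor onto DNA, had 2096, 1984 and 2066 reads in control and 1757, 1434 and 1838 in PELP1-KD libraries. Each PELP1-KD library lay below each control library after normalization, at 1769 ± 85.2 against 1931 ± 35.7 normalized reads, a log2 fold change of −0.13 (SE 0.05). ARNT2 (chr15:80696692-80890277), the partner found mainly in neural tissue, was near the limit of detection. It had 1, 1 and 7 reads in control and 1, 0 and 0 in PELP1-KD libraries, so control replicate 3 held most of its reads. Control over PELP1-KD, corrected for library size, was a ratio of 8.02 (exact binomial 95% interval 1.11 to 351, counting error only).

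AHRR (chr5:304291-438405), the repressor, had 441, 425 and 542 reads in control and 359, 313 and 398 in PELP1-KD libraries. Normalized, it was at 443 ± 64.2 and 377 ± 18.02 reads, a log2 fold change of −0.23 (SE 0.09), and the groups did not overlap. Control replicate 3 stood above the other control libraries, and without it the log2 fold change was −0.10. Of its 5660 exon bases, 45 are shared with PDCD6 on the same strand, so a small part of its reads was split between both genes. TIPARP (chr3:156392205-156424557), the other feedback gene, went the other way from AHRR. It had 815, 794 and 751 reads in control and 1049, 794 and 940 in PELP1-KD libraries. These were 742 ± 22.8 and 980 ± 81.8 normalized reads without overlap, a log2 fold change of 0.40 (SE 0.06). TIPARP shares 847 of 4530 exon bases with TIPARP-AS1 on the opposite strand, and the counting used strand.

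CYP1A1 (chr15:75011883-75017877), an oxidase of polycyclic hydrocarbons, had 3107, 3047 and 3051 reads in control and 11571, 10256 and 12254 in PELP1-KD libraries. The spread within each group was small, with 2893 ± 39.1 and 12018 ± 201 normalized reads. The log2 fold change was 2.05 (SE 0.04). CYP1A2 (chr15:75041184-75048941), the caffeine-oxidizing enzyme of adult liver, was barely detected in either group. It had 3, 2 and 6 reads in control and 4, 1 and 2 in PELP1-KD libraries, 11 against 7 in all. The ratio of PELP1-KD to control, corrected for library size, was 0.71 (exact binomial 95% interval 0.23 to 2.02, counting error only).

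CYP1B1 (chr2:38294746-38303323), which oxidizes estrogens and hydrocarbons and is known mainly outside the liver, had the largest fold of the 9 genes. It had 131, 116 and 127 reads in control and 1179, 1096 and 1191 in PELP1-KD libraries, or 117 ± 5.47 and 1225 ± 47.3 normalized reads. The log2 fold change was 3.38 (SE 0.07). NQO1 (chr16:69743304-69760533), a quinone reductase that both the receptor and NRF2 can induce, had 186, 203 and 175 reads in control and 247, 221 and 302 in PELP1-KD libraries. Its 177 ± 15.0 and 271 ± 26.8 normalized reads did not overlap, and the log2 fold change was 0.61 (SE 0.10).

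**Figure D1:**
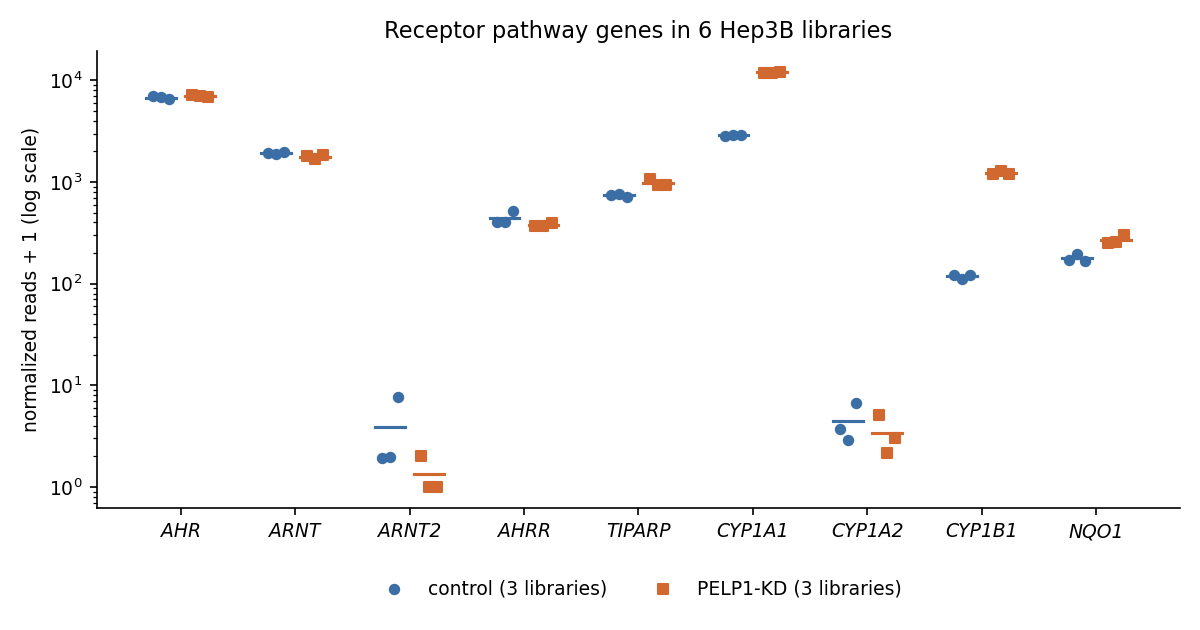
Normalized reads plus 1 (log scale) of the 9 genes in each of 3 control (circles) and 3 PELP1-KD libraries (squares), with a line at each group mean. CYP1A1 and CYP1B1 show the widest separation, AHR overlaps between the groups, and ARNT2 and CYP1A2 lie at a few reads.

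By edgeR with an adjusted p below 0.05, 4 of the 7 genes that passed the filter were called higher (CYP1A1, CYP1B1, TIPARP, NQO1) and 2 lower (ARNT, AHRR), where 26.8% of all tested genes were called higher and 26.8% lower. Both CYP1 genes among the 7 were also past 2-fold higher, against 2.85% of all genes, and 0 were past 2-fold lower, against 4.79%. The groups did not overlap for 4 genes that were higher and 2 that were lower, where 29.5% and 29.3% of all genes did so. As the genes were chosen with these values known, the counts only describe them. The calls of ARNT and AHRR each held in 8 of 13 alternative analyses. ARNT was not called without control replicate 1, 2 or 3 (log2 fold change −0.13, −0.14 and −0.11) or without PELP1-KD replicate 2 (−0.09). AHRR was not called without control replicate 3, or without PELP1-KD replicate 1 or 2 (−0.21 each).

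Levels between genes were compared as RPKM, reads scaled to the exon length of the gene and the depth of the library. In control libraries CYP1A1 (35.3 ± 0.48) and AHR (34.6 ± 1.18) were highest and did not differ beyond their spread. ARNT (12.6 ± 0.23) and TIPARP (5.21 ± 0.16) followed, then AHRR (2.49 ± 0.36) and NQO1 (2.18 ± 0.18), whose ranges overlapped, and CYP1B1 (0.73 ± 0.03). CYP1A2 and ARNT2 were last, at 0.04 and 0.01 RPKM, also with overlapping ranges. In PELP1-KD libraries CYP1A1 stood alone at 147 ± 2.46, ahead of AHR (35.8 ± 0.54) and ARNT (11.5 ± 0.55). CYP1B1 (7.57 ± 0.29) moved up beside TIPARP (6.88 ± 0.57), with overlapping ranges, ahead of NQO1 (3.33 ± 0.33) and AHRR (2.12 ± 0.10). Among all 23228 genes, CYP1A1 went from rank 2402 to 493 and CYP1B1 from 12587 to 7426. Although CYP1B1 had the larger fold, CYP1A1 gained more RNA, and the ratio of CYP1A1 to CYP1B1 RPKM was 48.7 ± 2.75 in control and 19.4 ± 0.92 in PELP1-KD libraries (SD, n = 3). The ratio of AHR to ARNT RPKM was 2.75 ± 0.13 and 3.12 ± 0.16.

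The genes whose profile lay nearest to CYP1A1 and CYP1B1 were found by the Euclidean distance between log2 normalized reads centred over the 6 libraries, among 11769 genes. Among the nearest to CYP1A1 were CYP2B6 (distance 0.15), SRGAP3 (0.19), CYP26A1 (0.20) and LIPH (0.27). CYP2B6 and CYP26A1 are also cytochrome P450 genes, for drugs and for retinoic acid. Nearest to CYP1B1 were CYP2S1 (0.28), AGR2 (0.40), EDIL3 (0.40), CDHR5 (0.44) and CD9 (0.56). CYP1A1 and CYP1B1 were 1.63 apart from each other, since the distance counts the size of the step between groups as well as its shape.

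**Figure D2:**
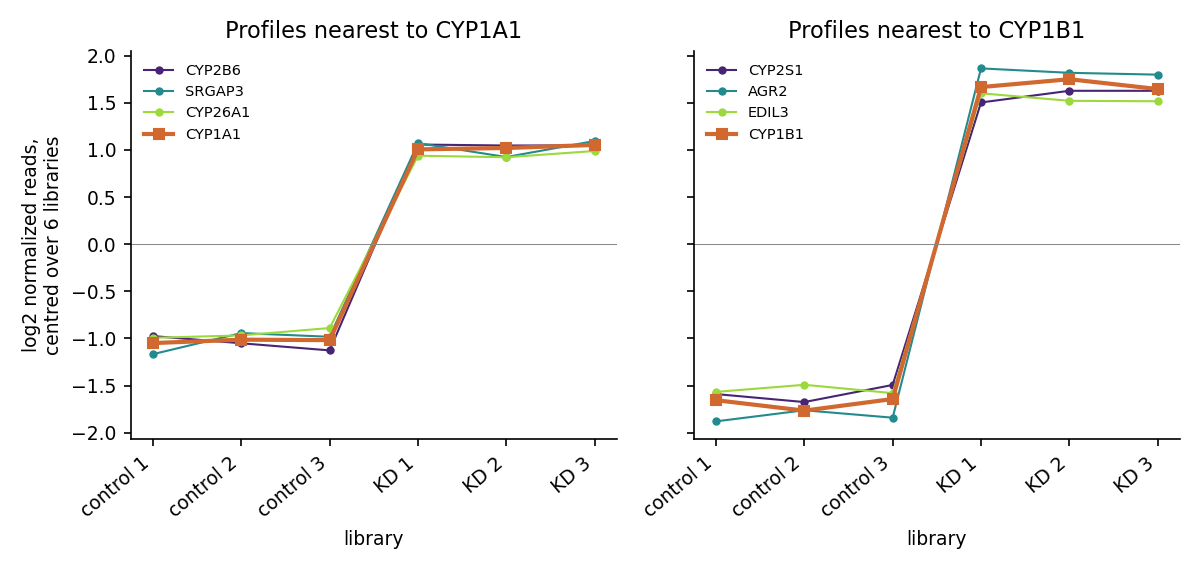
Centred log2 normalized reads (y axis) across 3 control and 3 PELP1-KD libraries (x axis) for CYP1A1 (left) and CYP1B1 (right), with the 3 nearest genes of each. All lines show a single step between the groups, of about 2.05 for CYP1A1 and 3.38 for CYP1B1 on the log2 scale.

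Other genes reported as induced through the receptor in various cell types were counted from a list of 27, of which 23 were tested. In the PELP1-KD libraries 12 rose (52.2%), 5 fell (21.7%) and 6 were not called, where 26.8% of all tested genes were called in each direction. The list had a median log2 fold change of 0.24 against 0.0044 for all tested genes, and it ran from 0.18 to 0.35 with a library left out. Like the lists below, it was chosen with earlier results of these data known, so its shares and median only describe it. CYP2S1, a P450 of epithelia, had 71, 64 and 73 reads in control and 547, 523 and 611 in PELP1-KD libraries. Its log2 fold change of 3.18 (SE 0.10, edgeR adjusted p = 6.79e-16) was close in size to that of CYP1B1. ABCG2, a drug efflux pump, rose by 1.13 (SE 0.05, edgeR adjusted p = 1.55e-13) and PRDM1, a transcriptional repressor, by 1.09 (SE 0.11, edgeR adjusted p = 5.45e-08). NEDD9, a scaffold of cell adhesion, went down with a log2 fold change of −1.25 (SE 0.06, edgeR adjusted p = 2.10e-12). The genes of this list thus went both ways. Outside the naming rule and chosen after their values were seen, PTGS2 (3.29), IL6 (1.63) and XDH (1.09) were also past 2-fold higher and CD36 (−1.91) past 2-fold lower. PTGS2 had at most 4 reads in a control library and 37 in a PELP1-KD library. IL6 was also low, with 3, 11 and 14 reads in control and 29, 20 and 29 in PELP1-KD libraries. Its log2 fold change was 1.19 without control replicate 1 and 2.05 without control replicate 3. CD36 had 34, 29 and 31 reads in control and 4, 10 and 8 in PELP1-KD libraries. UGT1A1 (0.39) and UGT1A6 (0.31), both called higher, share exons, so their values are uncertain.

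The receptor complex and its coregulators, a list of 16 genes all tested, had 5 genes that rose, 4 that fell and 7 that were not called. These shares, 31.2% and 25.0%, lay near the 26.8% of all genes in each direction. The median of −0.0035 ran from −0.0092 to 0.03 with a library left out, so it has no stable sign. HSP90AB1, a chaperone that holds the receptor in the cytosol, fell by 0.55 on the log2 scale (SE 0.03, edgeR adjusted p = 5.47e-12), and SMARCA4, a chromatin remodeler, fell by 0.23 (SE 0.04, edgeR adjusted p = 7.62e-05). MED1 of the Mediator rose by 0.33 and the kinase SRC by 0.34. Of 12 other bHLH-PAS genes, 7 were tested, 2 rose, 2 fell and 3 were not called (median −0.08, −0.04 without PELP1-KD replicate 1 and −0.22 with no filter on low counts). The hypoxia factors HIF1A (0.35, SE 0.04) and EPAS1 (0.27, SE 0.03), which also pair with ARNT, rose, and NPAS1 (−0.47, SE 0.13) and the clock gene ARNTL (−0.36, SE 0.14) fell. The ARNTL call was lost without control replicate 1 (−0.24) or 2 (−0.38) and without PELP1-KD replicate 3 (−0.25).

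NQO1 was also set beside 11 regulators and targets of NRF2. Of these, 6 rose (54.5%), 4 fell (36.4%) and 1 was not called, with a median of 0.15. For this list and the next ones, 26.8% of all tested genes were called in each direction. HMOX1, which breaks down heme, rose by 0.67 (SE 0.04, edgeR adjusted p = 1.09e-10), near the value of NQO1, and TXNRD1, a reductase of thioredoxin, by 0.21. KEAP1, which holds NRF2 down, fell by 0.24 on the log2 scale. P450 enzymes need electrons and heme, and of 13 genes for these 4 rose (30.8%), 2 fell (15.4%) and 7 were not called. Their median was −0.03, from −0.04 to −0.02 with a library left out. The heme synthesis genes CPOX (0.38) and ALAS1 (0.24) rose. PPOX (−0.27) and CYB5R3 (−0.11) fell, but PPOX lost its call without control replicate 1 (−0.24) or PELP1-KD replicate 1 (−0.16), and CYB5R3 without control replicate 3 (−0.10) or PELP1-KD replicate 1 (−0.08) or 2 (−0.10). Of 14 enzymes that make or use tryptophan ligands, 10 were tested, 3 rose (30%), 4 fell (40%) and 3 were not called. The median was −0.13, but it turned to 0.01 without control replicate 3 and to 0.03 without PELP1-KD replicate 2, and was −0.01 without PELP1-KD replicate 1, −0.03 without control replicate 2 and −0.20 without PELP1-KD replicate 3. KYNU, which cuts kynurenine, rose by 1.06 (SE 0.09, edgeR adjusted p = 6.80e-09), and IDO1 and IDO2, which start the path to kynurenine, had at most 2 reads in a library. Outside the naming rule and chosen after their values were seen, MAOA, which breaks down amines, fell by 0.79 (SE 0.06, edgeR adjusted p = 6.06e-10), and TDO2, the liver enzyme of the same step as IDO1, fell by 0.92 (SE 0.34, edgeR adjusted p = 0.0305) on the log2 scale. TDO2 had at most 23 reads in a library, and its call was lost without control replicate 2 (−0.90) or 3 (−0.82), without PELP1-KD replicate 1 (−0.84) or 3 (−0.76), and with DESeq2 (−0.92).

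**Figure D3:**
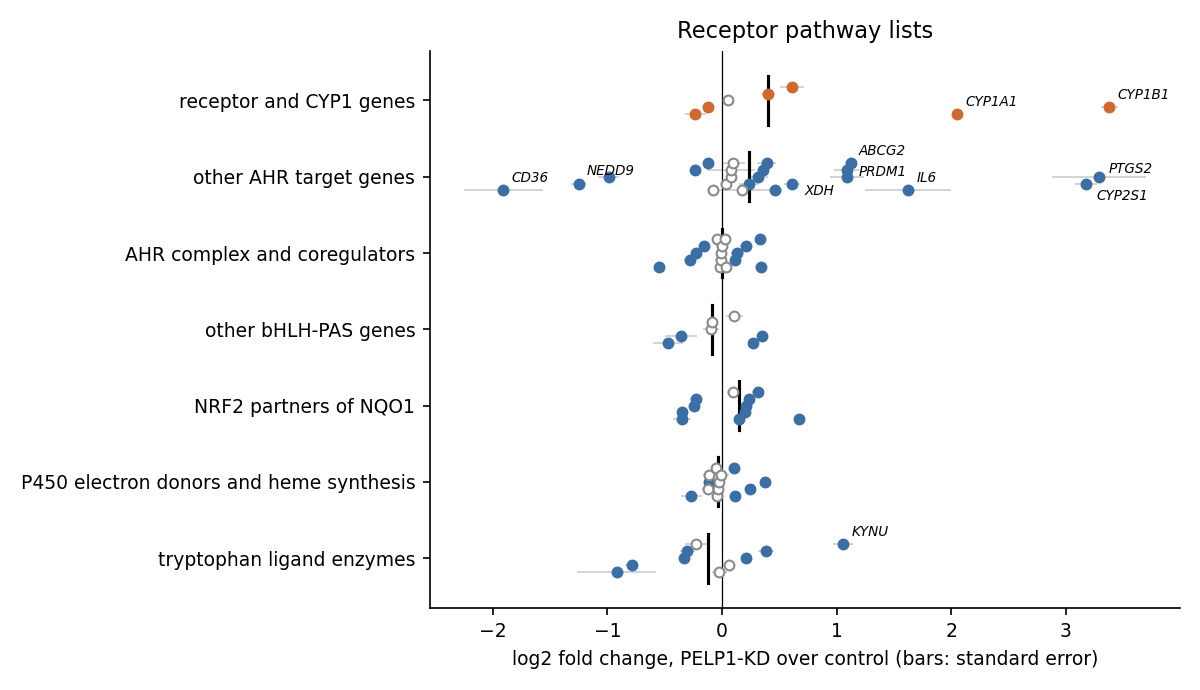
Log2 fold change of PELP1-KD over control (x axis) with its SE for the tested genes of each list (rows); filled points passed an adjusted p below 0.05 in edgeR, open points did not, and the black line is the list median. The receptor and CYP1 genes (orange) and the other target genes spread to both sides, with CYP1B1, PTGS2 and CYP2S1 farthest to the right.

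By symbol, 59 P450 genes and pseudogenes outside family 1 were found, a list drawn up after the values were seen. Of these, 29 were tested, 13 rose, 5 fell and 11 were not called, where 26.8% of all tested genes were called in each direction. The pseudogene CYP2B7P1 (0.75) was among those that rose. The genes past 2-fold higher were CYP2S1, CYP2B6 (2.10) and CYP26A1 (1.90), and those past 2-fold lower were CYP24A1 (−2.34), CYP26B1 (−1.02) and CYP7B1 (−1.65). The value of CYP24A1 rests on low levels, 0.14 RPKM in control and 0.03 in PELP1-KD libraries, and has an SE of 0.50. Over all tested genes, 2.85% were past 2-fold higher and 4.79% past 2-fold lower. By RPKM, CYP1A1 ranked 2 of 62 P450 genes and pseudogenes in both groups, after CYP51A1 of sterol synthesis. CYP1B1 went from rank 17 to 6.

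**Figure D4:**
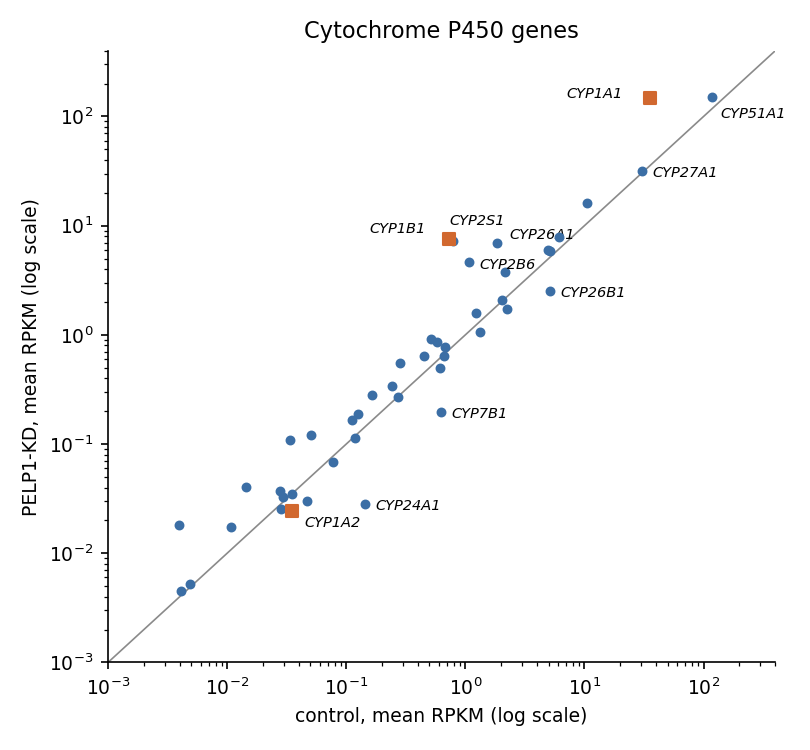
Mean RPKM of 46 P450 genes and pseudogenes with reads in both groups, control (x axis) against PELP1-KD (y axis), both on log scales. The line marks equal level, and squares are CYP1A1, CYP1A2 and CYP1B1. CYP1A1 and CYP1B1 lie above the line and CYP1A2 lies near it at a few reads.

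Genes within 500 kb of the 9 genes were counted to see whether their surroundings moved too. Of 121 such genes, 92 were tested, 16 rose and 35 fell, where 26.8% of all tested genes were called in each direction. Around CYP1A1 and CYP1A2, 7 of 17 tested genes rose and 2 fell, with 0 past 2-fold, and around CYP1B1 0 of 3 were called. Around ARNT, 1 of 31 rose and 20 fell (median −0.22), so ARNT at −0.13 lay among its neighbours. AGR2, 494 kb from AHR, rose by 3.66 (SE 0.06, edgeR adjusted p = 9.60e-20), beside 0.05 for AHR itself. The other neighbours called past 2-fold were lower. They were PLEKHG4B and ZDHHC11 (−1.33) near AHRR, TMOD4 (−1.11) near ARNT, whose call was lost without control replicate 1 (−0.96) or PELP1-KD replicate 1 (−0.96) or 3 (−0.94) and with DESeq2 (−1.12), FAM108C1 (−1.97) near ARNT2 and TMED6 (−1.26) near NQO1. PLEKHG4B had 122 control reads and 1 PELP1-KD read, a ratio corrected for library size of 109 (exact binomial 95% interval 19.1 to 4327, counting error only). ZDHHC11 has a near-identical copy nearby, so its value is uncertain.

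**Figure D5:**
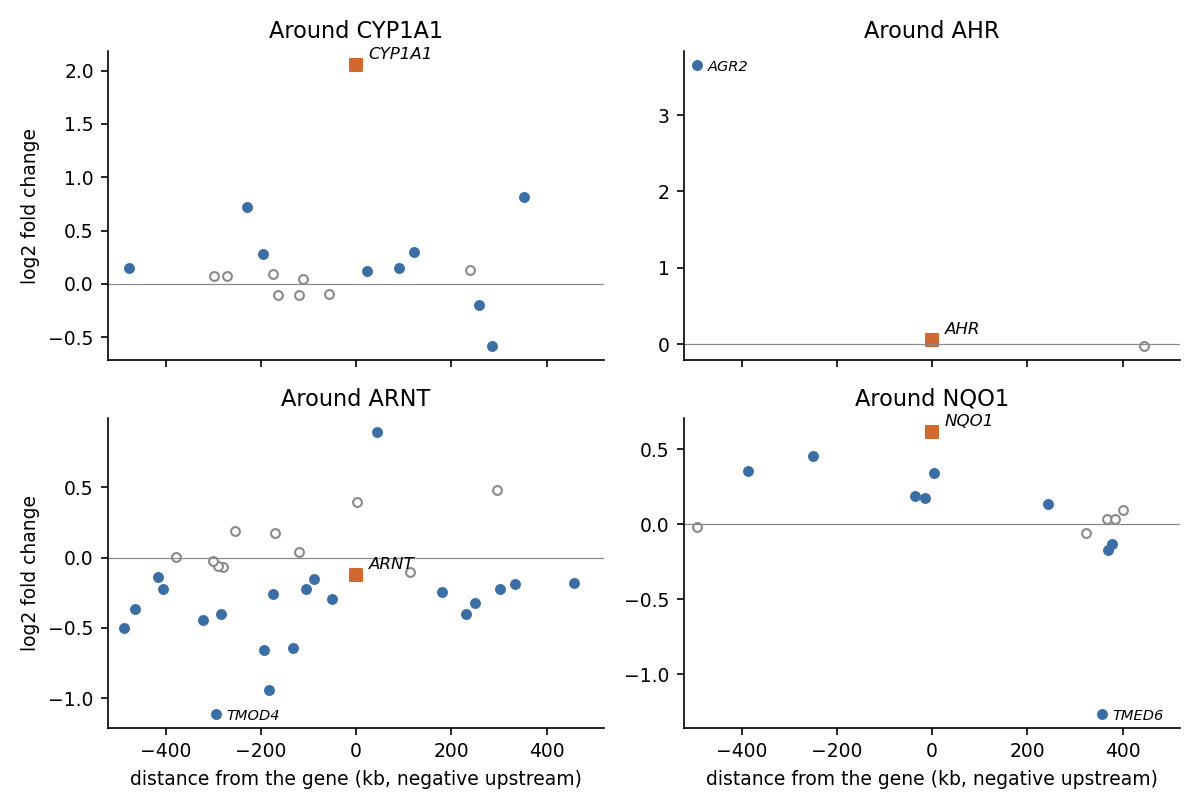
Log2 fold change of tested genes within 500 kb (y axis) against distance from the named gene in kb (x axis, negative upstream of it) for CYP1A1, AHR, ARNT and NQO1 (orange squares); filled points passed an adjusted p below 0.05 in edgeR. The neighbours of CYP1A1 stay below 1 while CYP1A1 is at 2.05, and most neighbours of ARNT lie below 0.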

How the data were processed

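Hep3B RNA-seq libraries, 3 control and 3 PELP1-KD, were grouped by their labels. The authors deposited estimated counts per gene, 1 table per library and without normalization. Per the file headers they were made with featureCounts 1.5.0-p1 by strand on hg19 exons, with a minimum mapping quality of 2, and reads matching several places or genes were shared out as fractions, so genes with near-identical copies are less certain. The submitters' processing notes name HISAT2, and the paper's methods name TopHat2 and HTSeq. Between 10.6% and 13.3% of a library's values were not whole, and all were rounded.

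Fold changes came from edgeR 4.0.16 (R 4.3.3; filterByExpr, TMM, robust glmQLFit, glmQLFTest), with Benjamini-Hochberg adjustment over 14537 genes. Genes were called at an adjusted p below 0.05, and also at a 2-fold change. The SE was obtained by dividing the size of a log2 fold change by the root of its F statistic. The median SE over all genes was 0.06. Normalized reads are reads scaled by TMM to the geometric mean of the 6 libraries. RPKM used the exon length of the tables. Scripts were tested on simulated data.

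The 9 genes and all lists were chosen with earlier results of these data known. Named were the 9 genes, PELP1, of each list the genes past 2-fold (at most 4 by smallest p) or else, per direction, the 2 of smallest p, the neighbours past 2-fold within 500 kb (at most 4 per gene), and the 5 nearest profiles among genes averaging 100 normalized reads or more. Some genes that the rule names are not reported here. Deviations from the group mean of libraries with the same replicate number had correlations of 0.34, 0.25 and 0.67 over 6370 genes, which are not independent. Replicate 1 of PELP1-KD was closer to control replicate 2 (0.42), and replicate 2 of PELP1-KD was about as close to control replicate 1 (0.24). Whether the replicate numbers, which come from the labels, pair the libraries was thus not settled. The main fit did not pair them, and the replicate block was run as an alternative. Alternatives were DESeq2 1.42.0, DESeq2 size factors, upper-quartile factors or library size alone in edgeR, no filter or at least 10 reads in every library, the replicate block, and leaving out 1 library at a time.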

Additional observations from a re-analysis of the deposited data

How the results depend on the processing

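The direction of each of the 7 tested genes was kept in all 13 alternatives. CYP1A1 (2.04 to 2.07), CYP1B1 (3.34 to 3.41), TIPARP (0.33 to 0.44) and NQO1 (0.53 to 0.68) stayed past the threshold in all of them and AHR (0.03 to 0.08) in 0, while ARNT and AHRR held in 8. These genes were chosen with their values known, and the alternatives draw on the same libraries, so the calls only describe them. Apart from libraries left out, ARNT was lost with library size alone (log2 fold change −0.11) and AHRR with library size alone (−0.21) and DESeq2 (−0.24), and ARNTL with DESeq2 (−0.36). The count of P450 electron donor and heme synthesis genes past the threshold was 6 and ran from 3 to 6 with a library left out, the lowest without PELP1-KD replicate 2. With the replicate block, which pairs the libraries by number, 8 of these genes passed and the call of no named gene changed. CYP1A2 and ARNT2, at a few reads, did not pass the filter, and their ratios have wide counting intervals.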
